A study of Homo sapiens with 16 samples.

Results

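Matrix metalloproteinases (MMPs) are zinc-dependent endopeptidases that cut proteins of the extracellular matrix. The 10 genes described here, MMP1, MMP2, MMP3, MMP7, MMP9, MMP10, MMP14, MMP16, MMP24 and MMP25, were taken by gene symbol from a table of 61806 genes. All 10 symbols were in the table. They were measured by poly(A) RNA sequencing in LX-2, an established human line derived from hepatic stellate cells. The 4 groups, of 4 replicates each, were wild-type cells exposed for 2 h to 100 ng/mL of the cytokine TWEAK (TWEAK), a CRISPR/Cas9 knockout of total Fn14 given PBS (Fn14 KO), a CRISPR/Cas9 knockout of Fn14alpha given PBS (Fn14alpha KO), and wild-type cells given PBS (WT). Every group was grown in a reduced-serum endothelial basal medium and kept in culture for 24 h before the 2 h treatment. TNFRSF12A encodes Fn14, to which TWEAK binds, and the series title names an Fn14 isoform that is active without TWEAK. The sources used here do not state whether a knockout line is 1 clone or a pool, so the gene that was targeted and other differences between lines cannot be told apart. The replicates are called biological with no further detail, and p-values therefore cover only the spread between these samples, which may be technical.

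Most MMPs are made as inactive precursors whose propeptide blocks the catalytic zinc until it is removed, and tissue inhibitors (TIMPs) bind the active enzymes. Gelatinases cut denatured collagen and basement membrane collagen, collagenases cut intact fibrillar collagen, stromelysins cut proteoglycans and glycoproteins and can activate other pro-MMPs, and membrane types act at the cell surface. In liver, stellate cells are a source of both fibrillar matrix and the enzymes that degrade it.

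RefSeq promoter windows (GRCh38.p14) covering 250 bases before to 50 bases after the gene start were matched for 4 of the 10 genes, MMP7, MMP10, MMP14 and MMP24. Each window was searched on both strands for the AP-1 site TGAGTCA, for the TATA box TATAAA and for the NF-kB consensus. Of 35116 promoters of that length, 4.95% held the AP-1 site, 11.5% the TATA box and 5.91% the NF-kB consensus. The windows of MMP14, MMP24 and MMP7 are shown with those motifs in capitals. MMP14 was the most abundant of the 10 transcripts, and MMP24 differed in opposite directions in the 2 knockouts. MMP7 had 14 counts in Fn14 KO and 11 in Fn14alpha KO, against 50 in WT. It passed the filter on low counts mainly through wild-type cells, so it could hardly be seen other than lower in the knockouts. Its window was added after its values were seen. The windows lie at chr14:22836335-22836634 (plus strand), chr20:35226440-35226739 (plus strand) and chr11:102530698-102530997 (minus strand).

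MMP14: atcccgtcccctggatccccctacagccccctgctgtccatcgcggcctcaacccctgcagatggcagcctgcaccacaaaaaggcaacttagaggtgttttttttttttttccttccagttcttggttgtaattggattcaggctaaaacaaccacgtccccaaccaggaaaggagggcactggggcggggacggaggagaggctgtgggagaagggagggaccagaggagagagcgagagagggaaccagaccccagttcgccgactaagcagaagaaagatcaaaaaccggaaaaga

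MMP24: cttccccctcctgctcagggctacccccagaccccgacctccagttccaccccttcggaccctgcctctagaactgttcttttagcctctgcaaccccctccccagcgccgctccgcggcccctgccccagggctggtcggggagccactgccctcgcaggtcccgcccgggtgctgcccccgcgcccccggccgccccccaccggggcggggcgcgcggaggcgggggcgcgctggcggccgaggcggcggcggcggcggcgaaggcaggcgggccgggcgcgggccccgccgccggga

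MMP7: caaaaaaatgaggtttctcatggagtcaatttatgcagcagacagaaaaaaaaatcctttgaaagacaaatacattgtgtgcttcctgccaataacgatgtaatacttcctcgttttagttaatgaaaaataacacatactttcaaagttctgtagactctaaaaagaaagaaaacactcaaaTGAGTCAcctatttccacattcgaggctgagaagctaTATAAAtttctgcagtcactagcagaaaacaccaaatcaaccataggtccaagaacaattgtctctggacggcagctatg

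The MMP7 window held an AP-1 site 67 bases and a TATA box 30 bases before the start, and its GC content was 35.7%. The MMP14 and MMP24 windows held none of the 3 motifs, at a GC content of 55.0% and 80.0%, against a median of 58.7% over all promoters. MMP10 was like MMP7 in having a TATA box, 31 bases before the start, and a GC content of 36.3%, and it held no AP-1 site. A match describes these letters only and says nothing of binding.

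Library totals ran from 13335919 to 16888606 counts. On the third principal component (5.43% of the variance), WT replicate 4 (37.0) and Fn14 KO replicate 1 (24.5) stood apart from the other libraries (−19.9 to 10.4). Some results are also given with WT replicate 4, or both of these libraries, left out. TNFRSF12A, the targeted gene, was at 33.6 ± 2.77 FPKM (fragments scaled to exonic length and library total) in Fn14 KO and 59.3 ± 6.43 in Fn14alpha KO, against 128 ± 6.29 in WT (SD, n = 4 each). A count per gene does not show whether the remaining transcripts encode a receptor. Of 11 stellate cell markers, 8 were at 1 FPKM or more in TWEAK, 6 in Fn14 KO, 7 in Fn14alpha KO and 8 in WT. Such counts do not show shifts in level, which went both ways in Fn14 KO. NGFR was at 33.0 ± 2.10 FPKM there against 1.47 ± 0.243 in WT, and COL1A1 at 196 ± 5.96 against 133 ± 7.96. COL1A2 was at 0.16 ± 0.0294 FPKM in Fn14 KO against 1.48 ± 0.0932 in WT. DES, GFAP and LRAT were below 1 FPKM in every group. Mitochondrial mRNAs summed to 32500 to 52100 FPKM in Fn14 KO and 38300 to 46300 in Fn14alpha KO, against 38100 to 56200 in WT.

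The order of the abundant members differed between groups. MMP14 was the highest of the 10 in all 4 groups, at 98.3 ± 2.52 FPKM in TWEAK, 69.3 ± 3.46 in Fn14 KO, 62.3 ± 2.25 in Fn14alpha KO and 109 ± 3.90 in WT. Next came MMP9 (63.4 ± 4.29 FPKM) in TWEAK, MMP2 (21.6 ± 0.901) in Fn14 KO, and MMP1 in Fn14alpha KO (11.8 ± 0.486) and WT (57.5 ± 6.53). The first 4 members in each group had ranges over their 4 libraries that did not overlap. The lower ranks were less distinct. For example, MMP25 overlapped MMP2 in Fn14alpha KO, MMP24 overlapped MMP16 in Fn14 KO, and in WT MMP16 overlapped both MMP24 and MMP3. FPKM corrects for exonic length, so a comparison between genes depends on the length used for each. The deposited length of MMP1 was 2738 bases, against 1970 in a GENCODE annotation, and that of MMP9 was 2336 bases in both. With the shorter length the level of MMP1 would be higher in every group, so its rank beside MMP9 in TWEAK depends on the gene model. A change in a bulk library can come from fewer cells that express a gene or from less RNA per cell, and these cannot be told apart.

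**Figure D1:**
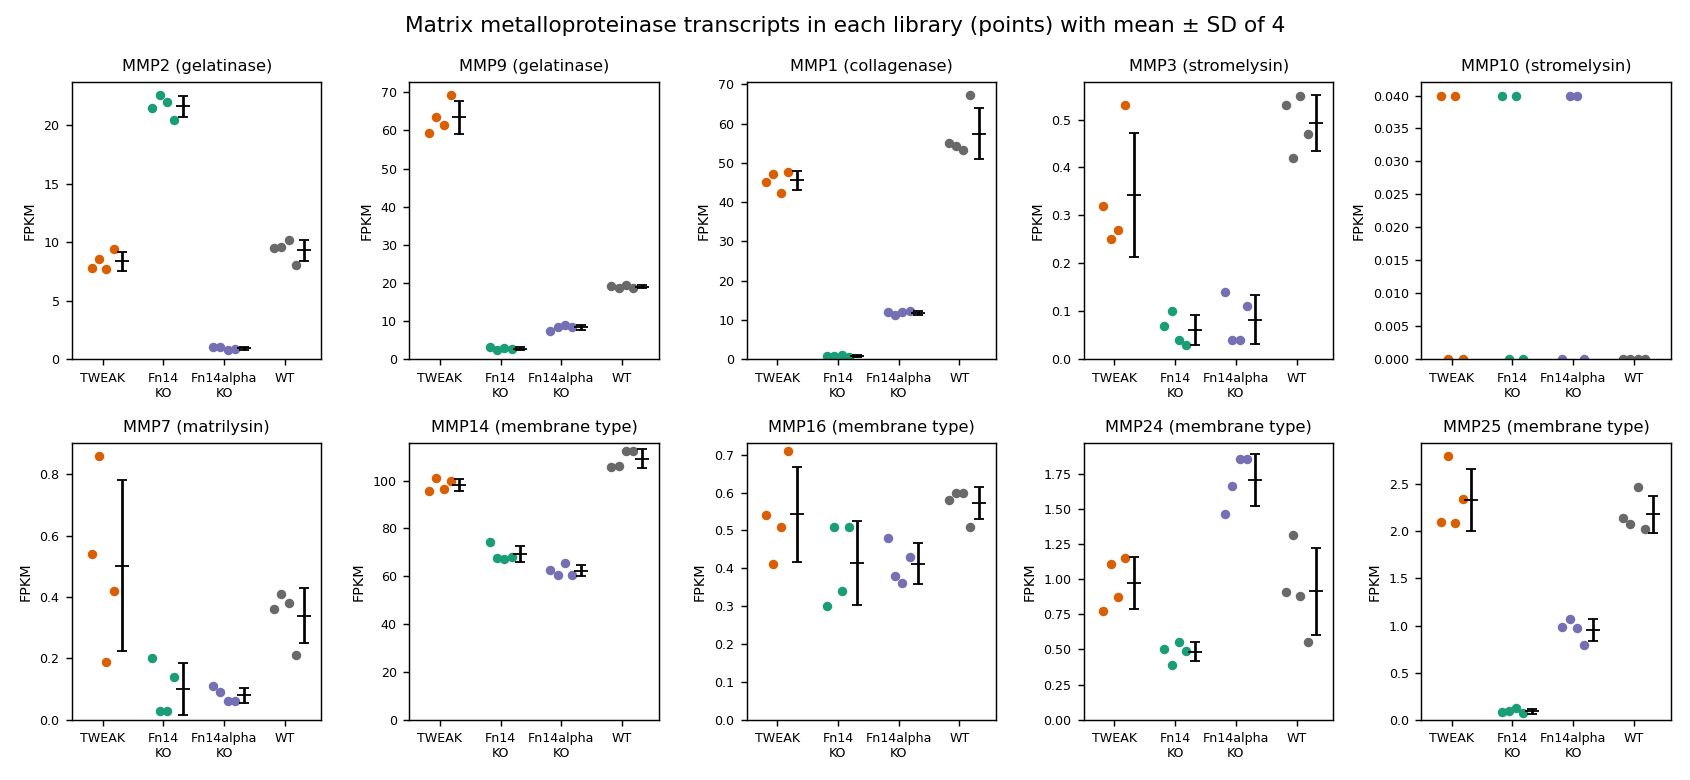
Level of each of the 10 genes in FPKM (vertical axes, from 0, each with its own scale) in the 4 libraries of each group (points); bars at the right of each group give the mean ± SD, left out for MMP10, where no library held more than 1 count. MMP9 is highest in TWEAK, MMP2 in Fn14 KO and MMP24 in Fn14alpha KO, while MMP1 and MMP25 are highest in wild-type cells with or without TWEAK.

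Summed over the 10 genes, the level was 220 ± 9.78 FPKM in TWEAK, 95.6 ± 3.64 in Fn14 KO, 86.6 ± 2.70 in Fn14alpha KO and 199 ± 7.79 in WT. Membrane types, of which nearly all was MMP14, made up 46.4 ± 0.957% of that sum in TWEAK, 73.5 ± 1.19% in Fn14 KO, 75.5 ± 0.580% in Fn14alpha KO and 56.6 ± 1.28% in WT. The collagenase MMP1 made up 20.7 ± 0.532% in TWEAK, 0.840 ± 0.205% in Fn14 KO, 13.7 ± 0.512% in Fn14alpha KO and 28.8 ± 2.28% in WT. Gelatinases made up 32.5 ± 1.04% in TWEAK, 25.5 ± 1.11% in Fn14 KO, 10.7 ± 0.631% in Fn14alpha KO and 14.2 ± 1.06% in WT. In FPKM the knockouts therefore had membrane-type shares that were near each other, without overlap, and unlike shares of collagenase and gelatinase. In raw counts their membrane-type shares lay farther apart, at 74.8% in Fn14 KO and 84.4% in Fn14alpha KO. Stromelysins and matrilysin together were a trace in every group, with class means between 0.0830% and 0.247%. These shares are descriptions with no test, and an increase in one class lowers the share of the others. They also depend on the exonic length used for each gene, as for MMP1.

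**Figure D2:**
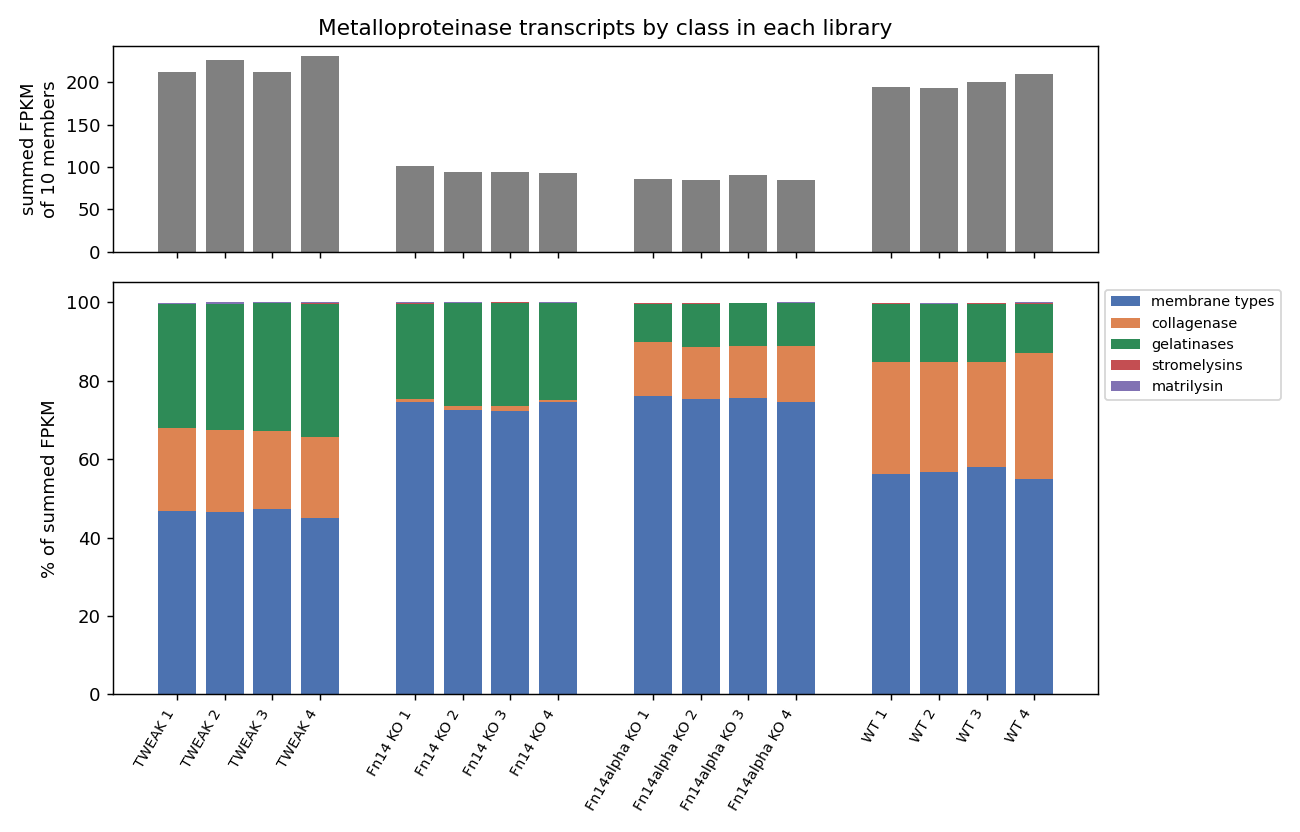
Upper bars give the summed FPKM of the 10 genes in each of the 16 libraries, and lower stacked bars the percentage of that sum in each class. The collagenase segment is nearly absent in the 4 Fn14 KO libraries (0.840% on average, against 28.8% in WT), and the gelatinase segment is tallest in TWEAK (32.5%).

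The quasi-likelihood test of edgeR was applied to 16029 genes, with Benjamini-Hochberg adjusted p under 0.05 as the threshold for a call. Of the 10 members 9 passed the filter on low counts. MMP3 and MMP7 passed it mainly through their libraries in wild-type cells, where they are high, so in the knockouts they could hardly be seen other than lower. They are therefore left out of the counts and medians that follow, a choice made after their values were seen, and are described on their own. Of the 7 others 1 rose and 1 fell in TWEAK, with a median log2 fold change of −0.03 (all genes, −0.01). Of all genes tested, 6.87% were called there, 4.82% higher and 2.05% lower. In Fn14 KO 1 rose, 5 fell and 1 was not called, with a median of −0.81 (all genes, −0.01), where 52.9% of all genes were called, 26.6% higher and 26.3% lower. In Fn14alpha KO 1 rose and 6 fell, with a median of −1.22 (all genes, 0.01), where 42.2% of all genes were called, 20% higher and 22.2% lower. Between Fn14 KO and Fn14alpha KO, 2 were higher, 4 lower and 1 not called, with a median of −1.47 (all genes, 0.00), where 59.2% of all genes were called, 30.7% higher and 28.5% lower. With total counts in place of TMM scaling the share of calls that were higher was 43.9% in place of 70.2% in TWEAK, 36.0% in place of 50.2% in Fn14 KO, and 37.3% in place of 51.9% between the knockouts. The 3 comparisons with WT share its libraries. A change of at least 2-fold in either direction was fitted for 1 of the 7 in TWEAK (1.73% of all genes), for 4 in Fn14 KO (13.3%) and for 4 in Fn14alpha KO (8.04%).

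**Figure D3:**
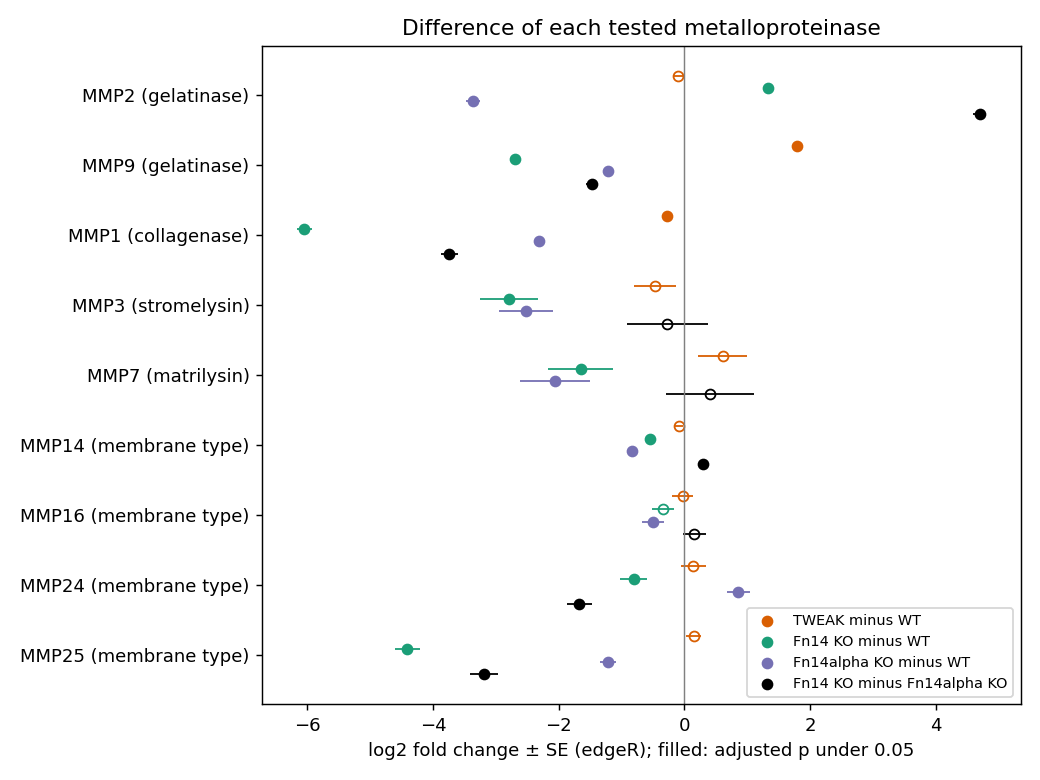
Log2 fold change ± SE (horizontal axis) of the 9 tested members in 4 comparisons; filled points passed an adjusted p of 0.05 and open points did not. Over the 4 comparisons MMP2 is the member whose points lie farthest apart, at −3.37 in Fn14alpha KO minus WT and 4.70 in Fn14 KO minus Fn14alpha KO. Both use the Fn14alpha KO libraries, with opposite sign. Against WT alone MMP2 runs from −3.37 to 1.33 and MMP1, wider, from −6.05 to −0.28.

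The 2 gelatinases changed in opposite directions in Fn14 KO, both fell in Fn14alpha KO, and only MMP9 was called in TWEAK. MMP9, also called gelatinase B (chromosome 20, 46008908 to 46016561, plus strand), is a known NF-kB target. It was at 59.3, 63.6, 61.4 and 69.3 FPKM in the TWEAK libraries and 3.09, 2.40, 2.86 and 2.52 in Fn14 KO. It was at 7.39, 8.47, 9.0 and 8.43 in Fn14alpha KO and 19.3, 18.8, 19.5 and 18.6 in WT. No 2 groups overlapped, and the order from high to low was TWEAK, WT, Fn14alpha KO, Fn14 KO. MMP9 rose 3.47-fold in TWEAK (log2 fold change 1.79 ± 0.07, SE; edgeR adjusted p = 1.35e-14). It fell 6.46-fold in Fn14 KO (−2.69 ± 0.09; edgeR adjusted p = 1.93e-17) and 2.34-fold in Fn14alpha KO (−1.22 ± 0.08; edgeR adjusted p = 1.25e-11). It was 2.76-fold lower in Fn14 KO than in Fn14alpha KO (−1.47 ± 0.10; edgeR adjusted p = 3.59e-12). SLC12A5-AS1, on the opposite strand, overlaps 18.4% of the exonic bases of MMP9. Its level was 0.638 FPKM in TWEAK, 0.105 in Fn14 KO, 0.365 in Fn14alpha KO and 0.48 in WT. Whether counting used strand is not stated, so reads in that overlap cannot be told apart.

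MMP2, or gelatinase A (chromosome 16, 55389700 to 55506691, plus strand), is classically made by fibroblasts and stellate cells and is activated at the cell surface by MMP14 with TIMP2. It was at 7.78, 8.59, 7.68 and 9.37 FPKM in TWEAK and 21.4, 22.6, 22.0 and 20.5 in Fn14 KO. It was at 1.03, 1.02, 0.78 and 0.85 in Fn14alpha KO and 9.51, 9.55, 10.1 and 8.04 in WT. All Fn14 KO libraries lay above, and all Fn14alpha KO libraries below, every wild-type library, whereas TWEAK and WT overlapped. MMP2 rose 2.52-fold in Fn14 KO (1.33 ± 0.08; edgeR adjusted p = 1.27e-12) and fell 10.3-fold in Fn14alpha KO (−3.37 ± 0.11; edgeR adjusted p = 1.79e-17). The direct difference between Fn14 KO and Fn14alpha KO was 26.0-fold (4.70 ± 0.10; edgeR adjusted p = 1.5e-20), the largest of any tested member in that comparison. In TWEAK it was not called (−0.10 ± 0.08; edgeR adjusted p = 0.531).

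Within a library the ratio of the 2 gelatinases does not depend on scaling between libraries. MMP2 made up 11.1 to 11.9% of gelatinase FPKM in TWEAK, 87.4 to 90.4% in Fn14 KO, 7.98 to 12.2% in Fn14alpha KO and 30.2 to 34.2% in WT. The low MMP2 percentage of TWEAK came with a raised MMP9 level, and that of Fn14alpha KO with lowered levels of both.

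**Figure D4:**
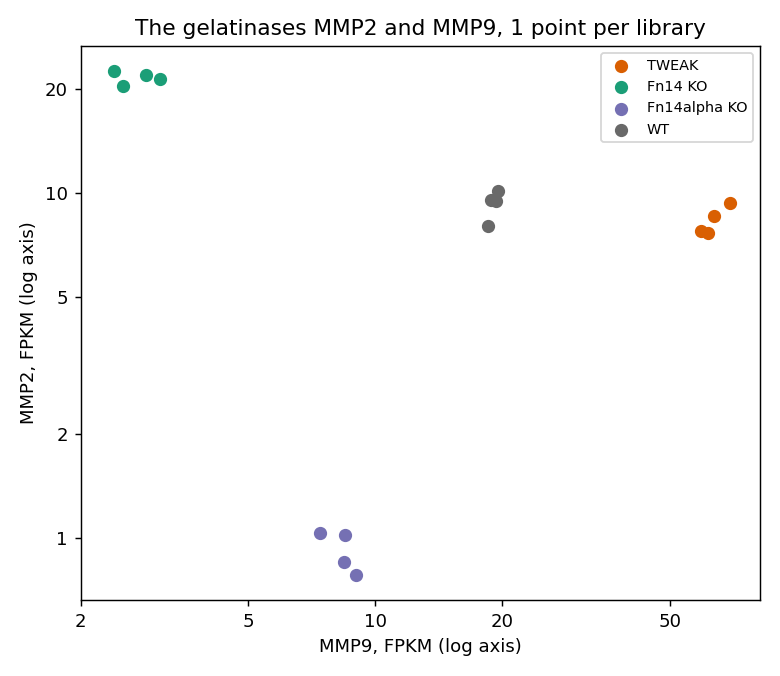
MMP2 (vertical) against MMP9 (horizontal), both in FPKM on log axes, with 1 point per library. The 4 groups form separate clusters, TWEAK to the right of WT at a like MMP2 level, Fn14 KO at the upper left (MMP2 20.5 to 22.6, MMP9 2.40 to 3.09 FPKM) and Fn14alpha KO at the bottom (MMP2 0.78 to 1.03 FPKM).

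MMP1, the interstitial collagenase (chromosome 11, 102789401 to 102798160, minus strand), had the largest change of the 9 tested members in Fn14 KO. It was at 45.1, 47.2, 42.4 and 47.7 FPKM in TWEAK and 0.78, 0.82, 1.04 and 0.57 in Fn14 KO. It was at 12.0, 11.1, 12.1 and 12.1 in Fn14alpha KO and 55.04, 54.3, 53.4 and 67.2 in WT. The groups did not overlap, and WT replicate 4 was well above the other WT libraries. MMP1 fell 66.2-fold in Fn14 KO (−6.05 ± 0.12; edgeR adjusted p = 8.29e-22), to 134 counts over 4 libraries against 9927 in WT. It fell 4.97-fold in Fn14alpha KO (−2.31 ± 0.09; edgeR adjusted p = 5.37e-16) and was 13.3-fold lower in Fn14 KO than in Fn14alpha KO (−3.74 ± 0.13; edgeR adjusted p = 1.81e-17).

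MMP1 was also called lower in TWEAK, by 1.21-fold (−0.28 ± 0.08; edgeR adjusted p = 0.0353). That call depended on single libraries. Without WT replicate 4 the log2 fold change was −0.19 (edgeR adjusted p = 0.147), and leaving out any 1 TWEAK library gave adjusted p values from 0.0507 to 0.145. MMP1 was 0.439 to 0.477 of the MMP14 level within TWEAK libraries, 0.00838 to 0.0155 in Fn14 KO, 0.183 to 0.200 in Fn14alpha KO and 0.474 to 0.597 in WT. Relative to the most abundant membrane type the collagenase was thus lower in both knockouts, with no overlap with WT.

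The stromelysins were near the limit of detection. MMP3, or stromelysin 1, which activates pro-MMP1 and pro-MMP9 (chromosome 11, 102835801 to 102843609, minus strand), was at 0.32, 0.25, 0.27 and 0.53 FPKM in TWEAK and 0.07, 0.10, 0.04 and 0.03 in Fn14 KO. It was at 0.14, 0.04, 0.04 and 0.11 in Fn14alpha KO and 0.53, 0.42, 0.55 and 0.47 in WT. Both knockouts lay below WT without overlap, and they overlapped each other. MMP3 fell in Fn14 KO (−2.79 ± 0.46; edgeR adjusted p = 1.46e-05) and in Fn14alpha KO (−2.52 ± 0.43; edgeR adjusted p = 4.51e-05), which rested on 7 and 9 counts against 57 in WT. TWEAK and WT overlapped, and the difference was not called (−0.47 ± 0.33; edgeR adjusted p = 0.445). MMP10, or stromelysin 2 (chromosome 11, 102770502 to 102780628, minus strand), had 2 counts in TWEAK, 2 in Fn14 KO, 2 in Fn14alpha KO and 0 in WT over 4 libraries each. These totals are under a floor of 3 counts and MMP10 was not tested, so a difference was not detectable at this depth. MMP3 and MMP10 are similar in sequence, but only 2.88% of 50-base windows of MMP3 transcripts also occurred in MMP10.

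MMP7, matrilysin, a small enzyme that lacks the hemopexin domain of most MMPs (chromosome 11, 102520508 to 102530750, minus strand), was also low. It was at 0.54, 0.86, 0.19 and 0.42 FPKM in TWEAK and 0.20, 0.03, 0.03 and 0.14 in Fn14 KO. It was at 0.11, 0.09, 0.06 and 0.06 in Fn14alpha KO and 0.36, 0.41, 0.38 and 0.21 in WT. Both knockouts lay below WT, Fn14 KO by a narrow margin, and TWEAK spread over the whole range of WT and beyond. MMP7 fell in Fn14 KO (−1.65 ± 0.52; edgeR adjusted p = 0.0105; −2.39 without the 2 libraries that stood apart) and in Fn14alpha KO (−2.06 ± 0.55; edgeR adjusted p = 0.00405), on 14 and 11 counts against 50 in WT. In TWEAK it was not called (0.61 ± 0.39; edgeR adjusted p = 0.402).

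MMP1, MMP3, MMP7 and MMP10 lie within 323 kb of each other on chromosome 11. Since MMP3 and MMP7 passed the filter mainly through wild-type libraries, their falls say nothing of the cluster as a whole. The 40 tested genes nearest MMP1 had a median log2 fold change of −0.13 in Fn14 KO, with 2 called higher and 13 lower, and of −0.06 in Fn14alpha KO, with 6 higher and 12 lower. For the 20 nearest, the medians were −0.39 in Fn14 KO and −0.26 in Fn14alpha KO. The 20 nearest MMP3 had medians of −0.29 in Fn14 KO and −0.26 in Fn14alpha KO, and the 20 nearest MMP7 of −0.49 in Fn14 KO and −0.29 in Fn14alpha KO. With the median of the 40 nearest genes removed, MMP1 was at −5.92 in Fn14 KO and −2.25 in Fn14alpha KO. In the same order MMP3 was at −2.67 and −2.49 and MMP7 at −1.52 and −2.0, and all were still called. Any part of the region in the levels of these members was not tested.

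**Figure D5:**
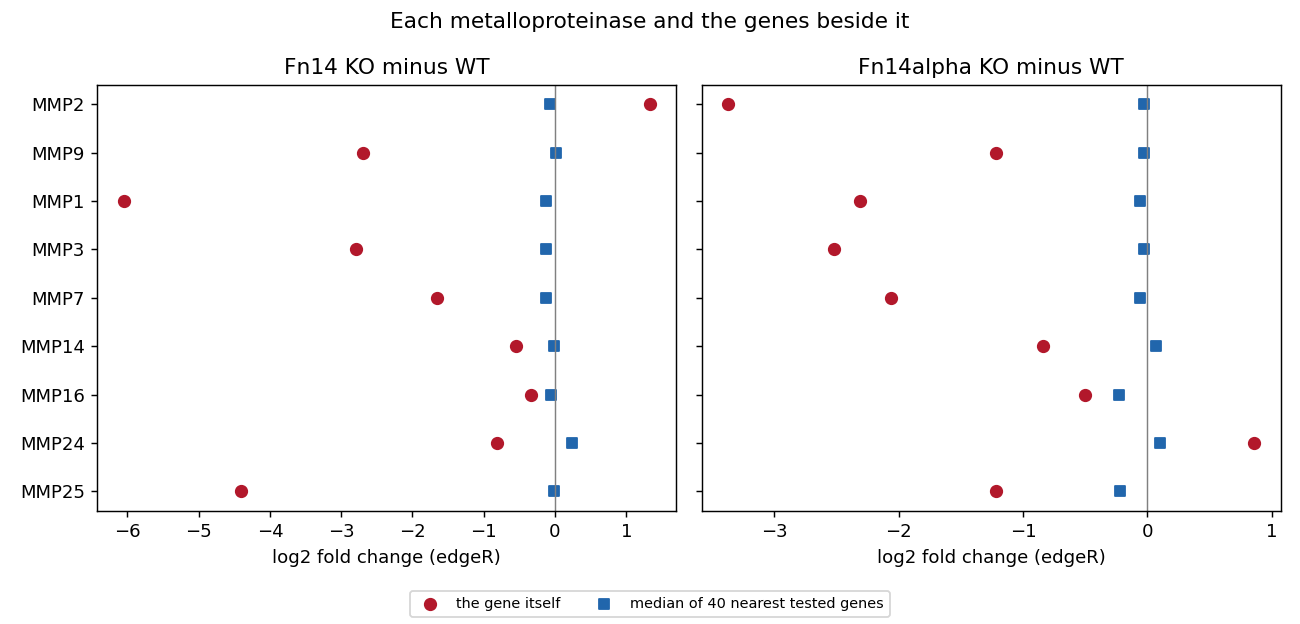
Log2 fold change (horizontal axis) of each tested member (circles) and the median of the 40 tested genes nearest to it on its chromosome (squares), for Fn14 KO minus WT (left) and Fn14alpha KO minus WT (right). The medians stay between −0.23 and 0.24, and MMP16 in Fn14alpha KO is the member that lies closest to its neighbours among those called.

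MMP14 (chromosome 14, 22836560 to 22849041, plus strand) is the membrane type that cuts fibrillar collagen and activates pro-MMP2. It changed by less than 2-fold in every comparison, on a high level. It was at 95.8, 101.0, 96.6 and 100.0 FPKM in TWEAK and 74.5, 67.5, 67.3 and 68.0 in Fn14 KO. It was at 62.6, 60.7, 65.4 and 60.6 in Fn14alpha KO and 105.6, 105.9, 112.5 and 112.5 in WT. The FPKM of the 4 groups did not overlap. MMP14 fell 1.45-fold in Fn14 KO (−0.54 ± 0.06; edgeR adjusted p = 2.55e-08) and 1.79-fold in Fn14alpha KO (−0.84 ± 0.06; edgeR adjusted p = 2.96e-11). Without the libraries that stood apart the change in Fn14 KO was −0.56. MMP14 was 1.23-fold higher in Fn14 KO than in Fn14alpha KO (0.30 ± 0.06; edgeR adjusted p = 7.32e-05). In TWEAK it was not called (−0.09 ± 0.06; edgeR adjusted p = 0.375) although the FPKM groups were apart.

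MMP25, a membrane type anchored by glycosylphosphatidylinositol and best known from neutrophils, was at 2.10, 2.80, 2.09 and 2.34 FPKM in TWEAK and 0.08, 0.09, 0.13 and 0.07 in Fn14 KO. It was at 0.99, 1.07, 0.97 and 0.79 in Fn14alpha KO and 2.14, 2.08, 2.47 and 2.03 in WT. TWEAK and WT overlapped, and the knockouts lay below both and apart from each other. MMP25 fell 21.3-fold in Fn14 KO (−4.41 ± 0.20; edgeR adjusted p = 5.3e-15) and 2.33-fold in Fn14alpha KO (−1.22 ± 0.13; edgeR adjusted p = 7.49e-08). The difference between Fn14 KO and Fn14alpha KO was 9.14-fold (−3.19 ± 0.22; edgeR adjusted p = 1.61e-11). In TWEAK it was not called (0.15 ± 0.12; edgeR adjusted p = 0.501).

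MMP25 (chromosome 16, 3046062 to 3060726, plus strand) starts 23.7 kb beyond the end of TNFRSF12A, the gene that was edited (3018445 to 3022383). Its 40 nearest tested genes had a median log2 fold change of −0.01 in Fn14 KO, with 5 called higher and 9 lower. In Fn14alpha KO that median was −0.22, with 1 higher and 17 lower. With the neighbours' median removed MMP25 was still called, at −4.40 in Fn14 KO and −1.0 in Fn14alpha KO. Any part of the editing itself in the level of MMP25 was not tested. The antisense gene MMP25-AS1 overlaps 35.2% of the exonic bases of MMP25, and it was not called in Fn14 KO (−0.39; edgeR adjusted p = 0.107) or in Fn14alpha KO (−0.28; edgeR adjusted p = 0.261). The sources used here do not state whether counting used strand, so reads in that overlap cannot be told apart.

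MMP24, a transmembrane type known mainly from neural tissue (chromosome 20, 35226690 to 35276998, plus strand), was at 0.77, 1.11, 0.87 and 1.15 FPKM in TWEAK and 0.50, 0.39, 0.55 and 0.49 in Fn14 KO. It was at 1.46, 1.66, 1.85 and 1.85 in Fn14alpha KO and 0.91, 1.31, 0.88 and 0.55 in WT. Fn14alpha KO lay above all other groups, and Fn14 KO met WT at 0.55, the value of WT replicate 4. MMP24 fell 1.76-fold in Fn14 KO (−0.81 ± 0.22; edgeR adjusted p = 0.00274) and rose 1.82-fold in Fn14alpha KO (0.86 ± 0.18; edgeR adjusted p = 0.000542). It was 3.19-fold lower in Fn14 KO than in Fn14alpha KO (−1.67 ± 0.20; edgeR adjusted p = 1.67e-07). In TWEAK it was not called (0.14 ± 0.20; edgeR adjusted p = 0.741). Without the 2 libraries that stood apart the changes were −1.02 in Fn14 KO and 0.68 in Fn14alpha KO, both called. MMP24OS, on the opposite strand, overlaps 18.1% of the exonic bases of MMP24 and was more abundant, at 15.8 ± 2.10 FPKM in Fn14 KO and 9.62 ± 0.814 in Fn14alpha KO, against 11.1 ± 1.30 in WT. Its changes ran opposite to those of MMP24, at 0.62 in Fn14 KO (edgeR adjusted p = 4.26e-06) and −0.24 in Fn14alpha KO (edgeR adjusted p = 0.0407).

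MMP16, a further transmembrane type, was the least changed in both knockouts among the membrane types MMP14, MMP16, MMP24 and MMP25. It was at 0.54, 0.41, 0.51 and 0.71 FPKM in TWEAK and 0.30, 0.51, 0.34 and 0.51 in Fn14 KO. It was at 0.48, 0.38, 0.36 and 0.43 in Fn14alpha KO and 0.58, 0.60, 0.60 and 0.51 in WT. Only Fn14alpha KO was apart from WT. MMP16 was called lower there (−0.50 ± 0.17; edgeR adjusted p = 0.0211), and its 40 nearest tested genes had a median of −0.23 with 18 called lower. With that median removed the change was −0.27 and was not called (edgeR adjusted p = 0.241). The call was also lost without Fn14alpha KO replicate 2 (edgeR adjusted p = 0.0561) or replicate 3 (edgeR adjusted p = 0.066). In Fn14 KO it was not called (−0.34 ± 0.17; edgeR adjusted p = 0.10), but it was without Fn14 KO replicate 2 (edgeR adjusted p = 0.0486) or replicate 4 (edgeR adjusted p = 0.0436). It was also called there with total counts (−0.45; edgeR adjusted p = 0.0282) and with limma on log2(FPKM + 0.1) (−0.41; limma adjusted p = 0.0482) or log2(FPKM + 1) (−0.16; limma adjusted p = 0.0439). Those limma fits gave adjusted p values of 0.0676 and 0.0537 in Fn14alpha KO. Without the libraries that stood apart, MMP16 was not called in Fn14 KO (−0.26; edgeR adjusted p = 0.204). TWEAK overlapped WT and was not called (−0.03 ± 0.16; edgeR adjusted p = 0.932), nor was Fn14 KO minus Fn14alpha KO (0.16 ± 0.18; edgeR adjusted p = 0.442).

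By the root mean square difference of log2 CPM, each centred on its gene's mean over the 16 libraries, the genes nearest to MMP9 among 12589 were LINC00943 (0.42), CSF2 (0.48), a colony-stimulating factor, and CLMP (0.50). The nearest to MMP1 were CTSS (0.39), a lysosomal cathepsin, PCDH17 (0.42) and MAGEA6 (0.48). The nearest to MMP3 were BCHE (0.37), LDAF1 (0.37) and PTPRN (0.38). MMP3 had at most 16 counts in any library, and the prior count of 2 in log2 CPM shrinks its differences, so this likeness is uncertain. In that order the 3 genes had log2 fold changes of −1.48, −1.56 and −1.57 in Fn14 KO, against −2.79 for MMP3. In Fn14alpha KO they had −2.03, −1.43 and −1.65, against −2.52 for MMP3. In the comparisons themselves CSF2 had log2 fold changes of 1.64 in TWEAK, −3.23 in Fn14 KO and −0.67 in Fn14alpha KO. CTSS had 0.39 in TWEAK, −6.10 in Fn14 KO and −2.31 in Fn14alpha KO. These are descriptions of likeness in these libraries.

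Of the 13 other human MMP genes 4 passed the filter, and the other 9 had at most 14 counts in any library. MMP19, a secreted MMP, rose 1.83-fold in TWEAK (0.87 ± 0.09; edgeR adjusted p = 9.23e-08) and was at 6.26 ± 0.375 FPKM there, 3.91 ± 0.277 in Fn14 KO, 1.9 ± 0.081 in Fn14alpha KO and 3.57 ± 0.399 in WT. It rose 1.19-fold in Fn14 KO (edgeR adjusted p = 0.0187) and fell 1.92-fold in Fn14alpha KO (edgeR adjusted p = 2.45e-08). MMP15, a transmembrane type, fell 2.46-fold in Fn14 KO (edgeR adjusted p = 1.08e-09). MMP11, or stromelysin 3, rose 2.08-fold in Fn14alpha KO (edgeR adjusted p = 3.2e-06). The collagenases MMP8 and MMP13 had at most 3 counts in any library, so MMP1 was the secreted collagenase that could be measured.

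Of 6 inhibitor genes, 4 could be tested. In TWEAK 1 rose (all genes called, 6.87%), in Fn14 KO 3 rose and 1 fell (all genes called, 52.9%), and in Fn14alpha KO 1 rose and 2 fell (all genes called, 42.2%). TIMP1, a broad MMP inhibitor that binds pro-MMP9, was at 207 ± 30.9 FPKM in Fn14 KO and 79.4 ± 8.45 in Fn14alpha KO, against 103 ± 14.1 in WT. The ratio of MMP9 to TIMP1 within a library was 0.575 to 0.649 in TWEAK, 0.0118 to 0.0148 in Fn14 KO, 0.0971 to 0.114 in Fn14alpha KO and 0.153 to 0.211 in WT, with no overlap between groups. TIMP3, which is held in the matrix, rose 3.16-fold in TWEAK (edgeR adjusted p = 5.32e-10), 6.54-fold in Fn14 KO (2.35e-15) and 3.02-fold in Fn14alpha KO (2e-10). MMP14 was 1.56 to 1.68 times the level of TIMP2, its partner in pro-MMP2 activation, in TWEAK, 0.785 to 0.896 times in Fn14 KO, 1.12 to 1.27 times in Fn14alpha KO and 1.54 to 1.86 times in WT. In the Fn14 KO the raised MMP2 level thus stood beside a lower ratio of MMP14 to TIMP2 transcripts.

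The counts of the further lists are also to be read against the 6.87% of all genes called in TWEAK, 52.9% in Fn14 KO and 42.2% in Fn14alpha KO. Of 14 proteases and receptors that act on pro-MMPs, 7 could be tested. In TWEAK 1 rose and 1 fell (28.6% called), in Fn14 KO 1 rose and 6 fell (100% called), and in Fn14alpha KO 2 rose and 2 fell (57.1% called). PLAU, the urokinase that generates plasmin, fell 6.07-fold in Fn14 KO (6.91 ± 1.01 FPKM, against 45.5 ± 2.35 in WT; edgeR adjusted p = 9.19e-18), and PLAT, the tissue-type activator, rose 2.27-fold there (edgeR adjusted p = 2.89e-14). FURIN, which cleaves the propeptide of membrane-type MMPs, fell 1.55-fold in Fn14 KO (edgeR adjusted p = 8.84e-07) and rose 1.34-fold in Fn14alpha KO (edgeR adjusted p = 0.000192). Of 20 AP-1, ETS and NF-kB factor genes known to act on MMP promoters, 13 rose and 1 fell in TWEAK (70.0% called), 7 rose and 8 fell in Fn14 KO (75.0%), and 5 rose and 5 fell in Fn14alpha KO (10 of 20, near the share of all genes). NFKB2, an NF-kB subunit, rose 2.96-fold in TWEAK (edgeR adjusted p = 4.48e-15) and fell 2.89-fold in Fn14 KO (edgeR adjusted p = 1.79e-15). Of 10 genes for surface partners, 3 rose in TWEAK, 4 rose and 5 fell in Fn14 KO (90.0% called), and 1 rose and 6 fell in Fn14alpha KO (70.0%). CD44, a hyaluronan receptor that binds MMP9, rose 1.68-fold in TWEAK (edgeR adjusted p = 1.34e-09). Of 29 other metzincins, 19 could be tested. In TWEAK 1 rose (5.26% called) and in Fn14 KO 5 rose and 6 fell (57.9%), both near the share of all genes, and in Fn14alpha KO 9 rose and 3 fell (63.2%).

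MMP9 and MMP25 are also products of leukocytes, and the levels of leukocyte markers stand beside their results. The 15 markers summed to 1.63 to 2.40 FPKM in TWEAK, 10.2 to 12.2 in Fn14 KO, 0.95 to 1.76 in Fn14alpha KO and 1.62 to 2.21 in WT. Of the 5 markers that could be tested, 4 were called higher in Fn14 KO, where 52.9% of all genes were called, 26.6% higher. The median log2 fold change over the 5 was 1.76. In TWEAK 0 of the 5 were called (all genes, 6.87%), and in Fn14alpha KO 1 was called lower (all genes, 42.2%). S100A8 and S100A9 passed the filter on low counts mainly through Fn14 KO, where they are high. They could hardly be seen other than higher there, so that count and median say little. S100A9 was at 5.73 ± 1.04 FPKM in Fn14 KO, against 0.0275 ± 0.055 in WT, and S100A8 at 3.18 ± 0.437 FPKM in Fn14 KO, against 0.0175 ± 0.035 in WT (SD, n = 4 each). CD14 was at 1 FPKM or more in TWEAK, Fn14 KO and WT. Of the 15 markers 7 were at 0 in all 4 Fn14 KO libraries. PTPRC, which encodes CD45, was among these. MPO and FCGR3B, markers of neutrophils, were at 0 in every library. Any part of leukocyte RNA in the levels of MMP9 and MMP25 was not tested. Markers of other cell types were low as well, with highest sums of 3.14 FPKM for hepatocytes in TWEAK, 2.08 for endothelium in WT and 12.8 for cholangiocytes in Fn14 KO, of which SOX9 gave most.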

How the data were processed

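For 61806 Ensembl genes and 16 libraries the authors deposited raw read counts together with FPKM values. Those FPKM values differed by at most 0.005 from count divided by exonic size and library total, which is the rounding of the file. The submitters' processing notes list HTSeq 0.6.1, HISAT2 2.0.1, cutadapt 1.9.1, FastQC 0.10.1 and DESeq2 without their roles, and name GRCh38.p13 and hg38 as builds. The sources used here do not state the strand setting or how multiply mapped reads were treated. Positions are those of the deposited table. Exon overlaps and shared 50-base windows were taken from a GENCODE annotation of GRCh38, and promoter windows from RefSeq.

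Counts were tested with edgeR 4.0.16 (R 4.3.3) by the two-sided quasi-likelihood test, with TMM scaling, filterByExpr and 1 mean per group over all 16 libraries, which left 16029 genes. A comparison gives its first group minus its second. The Benjamini-Hochberg adjustment ran over all genes tested. The SE is the size of the log2 fold change divided by the square root of F. Fold values come from that fit and can differ from ratios of FPKM, which uses total counts in place of TMM. Alternatives used DESeq2 1.42.0, limma 3.58.1 on log2(FPKM + 0.1) and log2(FPKM + 1), other scalings and filters, and libraries left out. The edgeR script was first tested on simulated data. No replicate pair within a group agreed within sampling noise (chi-square per degree of freedom 2.30 to 39.0 over 24 pairs). Replicate numbers do not pair the samples. Figures used Python 3.11.15 and matplotlib 3.10.9.

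Named genes are the 10 members, up to 3 called genes of each further list and comparison with the smallest adjusted p and a mean of at least 1 FPKM in a group, and the 3 genes nearest in pattern to MMP1, MMP3 and MMP9. By the rule, promoters were shown for members with a mean of at least 1 FPKM, and that of MMP7 was added after its values were seen. The members and lists were chosen with earlier results of these data known.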

Additional observations from a re-analysis of the deposited data

Results flagged for a closer look

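In 3 of 39 groups of 4 libraries that could be examined, 1 library lay far from the other 3, with a gap to the nearest above Dixon's critical share of the group's range. Chance flags about 1 in 20 groups. MMP1 in WT replicate 4 was at 67.2 FPKM, against 53.4 to 55 in the others, and MMP1 in Fn14alpha KO replicate 2 was at 11.1 FPKM, against 12.0 to 12.1. MMP14 in Fn14 KO replicate 1 was at 74.5 FPKM, against 67.3 to 68.0. WT replicate 4 and Fn14 KO replicate 1 are also the libraries that stood apart on the third principal component.

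The difference from WT was not the same in the 2 knockouts for 6 of the 9 tested members, by the direct edgeR test of Fn14 KO minus Fn14alpha KO. MMP3 and MMP7 had 7 and 14 counts in Fn14 KO and 9 and 11 in Fn14alpha KO, so a difference could hardly be seen. Of the 7 others 2 were higher, 4 lower and 1 not called. In that test 59.2% of all genes were called, and the count of members was not tested against that share. The log2 differences were 4.70 for MMP2, 0.30 for MMP14, −1.47 for MMP9, −1.67 for MMP24, −3.19 for MMP25 and −3.74 for MMP1. For MMP2 and MMP24 the 2 knockouts lay on opposite sides of WT.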

How the results depend on the processing

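Of the 25 member calls, 23 kept their direction and their side of the threshold under all 25 alternatives that could be run for them. The exceptions were MMP1 in TWEAK and MMP16 in Fn14alpha KO. The calls that were kept include the falls of MMP3 and MMP7 in both knockouts. Those members passed the filter mainly through wild-type libraries, so that their calls were kept says little. Of the 2 members called in TWEAK, 1 was left with limma on log2(FPKM + 0.1), with the replicate block, at a fold change of 2 or more, and without WT replicate 4 or any 1 TWEAK library (1 to 2 over the libraries left out). For MMP1 in TWEAK the log2 fold change was −0.27 with the replicate block (edgeR adjusted p = 0.0688) and −0.19 with both libraries that stood apart left out (edgeR adjusted p = 0.0485), and the adjusted p ran from 0.00848 to 0.147 over its alternatives; the cause was not tested. Replicate numbers do not pair the samples: same-numbered libraries correlated at −0.228 to 0.108, no library matched its own number best in all groups (0 of 16), and this block gave 893 called genes in TWEAK, 8205 in Fn14 KO, 6454 in Fn14alpha KO and 9241 between the knockouts. With a fold change of 2 or more also required, called genes numbered 146, 2071, 1229 and 2445 in the same order. Signs turned for members that were not called: MMP24 in TWEAK (−0.04 without WT replicate 4 and with both libraries left out; −0.04 to 0.37 over single libraries), MMP16 in TWEAK (0.08 without TWEAK replicate 2; −0.18 to 0.08 over single libraries), and, between the knockouts, MMP16 (−0.01 with limma on log2(FPKM + 0.1), 0.00 on log2(FPKM + 1) and 0.00 with the neighbours' median removed), MMP3 (0.11 without Fn14alpha KO replicate 1; −0.6 to 0.11 over the libraries left out) and MMP7 (−0.17 without Fn14 KO replicate 1 and with both left out; −0.17 to 0.74 over single libraries). With limma on log2(FPKM + 1), whose pseudocount understates low genes, MMP25 in Fn14 KO was at −1.54 and MMP3 at −0.49. With total counts the median of all genes was −0.124 in Fn14 KO (−0.007 with TMM) and −0.15 between the knockouts (0.00 with TMM). With raw counts, which favour long transcripts, membrane types made up 60.3% in TWEAK, 74.8% in Fn14 KO, 84.4% in Fn14alpha KO and 68.0% in WT, the collagenase 15.8%, 0.502%, 8.96% and 20.3%, and stromelysins 0.0841%, 0.0333%, 0.0518% and 0.118%; gelatinases made up 23.7% in TWEAK, 6.58% in Fn14alpha KO and 11.4% in WT, and matrilysin 0.0522% in Fn14alpha KO and 0.103% in WT. Depth limits MMP3, MMP7 and MMP10, which had at most 30 counts in any library.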
